A study of Mus musculus with 8 samples.

Results

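Genes of the skeletal and striated muscle program were followed in whole embryonic mouse stomach at day E13.5, in wild type embryos and in embryos of the genotype Nkx3.2Cre;R26-YAP5SA, called YAP5SA here. The program is a list of 41 genes matched by symbol among 23165 named loci, and each of the 41 had 1 locus. Of these, 26 had enough fragments for a test and 15 did not. Each genotype had 4 libraries of total RNA from fresh stomach, with 6.33 to 6.92 M fragments over all loci in wild type and 7.29 to 8.51 M in YAP5SA. In YAP5SA embryos, Cre recombinase made from Nkx3-2, a gene of stomach mesenchyme, switches on at the Rosa26 locus a form of the coactivator YAP that Hippo kinases cannot restrain. No library carried Cre alone, so effects of Cre and of active YAP cannot be told apart. Nothing in the labels tells separate embryos from pooled ones, so the p-values refer to the spread among these libraries, which may be technical.

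Skeletal muscle forms when progenitors marked by Pax3 and Pax7 switch on the myogenic regulatory factors. Myf5 and Myod1 commit cells to the lineage, Myog drives their differentiation, and the differentiating cells then build sarcomeres, couple the surface membrane to calcium stores, and cluster acetylcholine receptors under the nerve. The wall of the stomach is made of smooth muscle, which contracts without sarcomeres, whereas skeletal muscle lies nearby in the body wall, the diaphragm and the oesophagus. Many genes of the list are shared between skeletal and cardiac muscle, and some are also made at low level outside muscle.

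Levels are CPM (fragments of a gene per M fragments of the library, after scaling), and a gene is said to have risen or fallen where the edgeR quasi-likelihood test gave a Benjamini-Hochberg adjusted p under 0.05 over all 14574 loci tested. Of the 26 tested genes, 13 rose in YAP5SA, 2 fell and 11 did not pass the test. The genes of the list were chosen with earlier results of these data known. Counts over the list therefore describe it and do not test the program. Several of the 26 genes had enough fragments for a test only through their YAP5SA libraries. Among them was Cacna1s, with 4, 8, 8 and 3 fragments in wild type. Of the genes that rose, this also holds for Myod1, Myog, Synpo2l, Casq2, Actn2, Tnnc1, Atp2a1 and Cdh15. Each of these had under 10 fragments in some wild type library. Acta1, Tnni2 and Ttn, which did not pass the test, also entered this way. The counts and the median given here include these genes. Over all tested loci 9.06% rose and 9.85% fell. The counts by role and by marker list given below are to be read beside these shares, and most rest on few genes. The median log2 fold change was 0.85 over the 26 genes and -0.01 over all tested loci. Most of these genes were low, and among loci under 20 CPM on average 8.84% rose and 14.4% fell. In 13 of the 26 genes every YAP5SA library lay above every wild type library, against 10.9% of all tested loci, and in 2 every YAP5SA library lay below, against 12.4%. Of the 13 genes that rose, 11 were above wild type in every YAP5SA library, while Tnni1 and Cdh15 overlapped. Tnni2 and Unc45b did not overlap but did not pass the test. In bulk tissue, fewer cells of a type and less RNA per cell cannot be told apart.

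**Figure D1:**
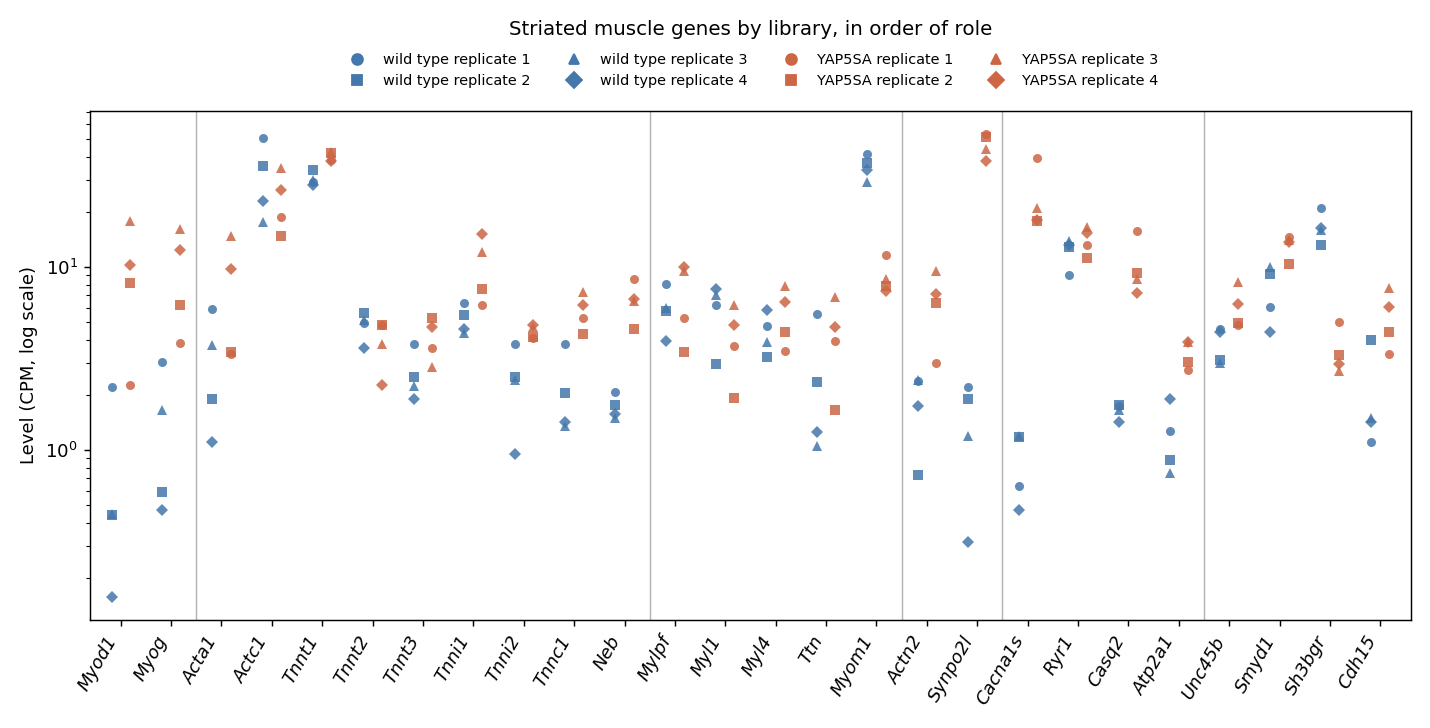
Level of the 26 tested striated muscle genes in each library, in CPM on a log axis; each point is 1 library, blue for wild type and red for YAP5SA, and vertical lines separate the groups of genes by role. Synpo2l, Cacna1s and Casq2 have 2 well separated clouds with YAP5SA above, Myom1 and Sh3bgr have YAP5SA below, and Myod1 runs from 2.28 to 17.7 CPM among the YAP5SA libraries.

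The stretches before the start sites of 7 genes are shown because these genes stand for the patterns described here. Synpo2l, Cacna1s and Casq2 had the largest fold changes outside the regulators, Tnnc1 and Atp2a1 rose by less, Acta1 did not pass the test, and Chrng had the most uneven counts among the untested genes. The sequences are those of the RefSeq promoter table on GRCm38.p6, written 5′ to 3′ on the strand of the gene and shortened where an exon is annotated. Capitals mark the motifs found, none of which overlap. These are the E-box CAGCTG, which myogenic factors prefer, the MCAT motif CATTCC or its reverse complement, which TEAD factors, the DNA-binding partners of YAP, recognise, the CArG box of SRF and the MEF2 site. The Synpo2l stretch (chr14:20668355-20668604, minus strand) holds a MEF2 site 109 bases before the start. The Cacna1s stretch (chr1:136052561-136052749, plus strand) holds an MCAT motif 130 and an E-box 123 bases before the start. The Casq2 stretch (chr3:102086165-102086414, plus strand) holds a MEF2 site 69 bases before the start. The Tnnc1 stretch (chr14:31208062-31208311, plus strand) holds an MCAT motif 58 bases before the start. The Acta1 stretch (chr8:123894776-123895025, minus strand) holds an E-box 221, a CArG box 73 and an MCAT motif 46 bases before the start. The Atp2a1 stretch (chr7:126463109-126463323, minus strand) holds an E-box 55 bases before the start. The Chrng stretch (chr1:87205561-87205809, plus strand) holds E-boxes 155 and 132 bases before the start.
Synpo2l: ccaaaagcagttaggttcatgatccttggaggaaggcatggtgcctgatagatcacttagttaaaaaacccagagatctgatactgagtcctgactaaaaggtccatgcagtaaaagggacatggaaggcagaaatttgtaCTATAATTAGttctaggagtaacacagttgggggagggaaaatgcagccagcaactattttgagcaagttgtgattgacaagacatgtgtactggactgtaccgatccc
Cacna1s: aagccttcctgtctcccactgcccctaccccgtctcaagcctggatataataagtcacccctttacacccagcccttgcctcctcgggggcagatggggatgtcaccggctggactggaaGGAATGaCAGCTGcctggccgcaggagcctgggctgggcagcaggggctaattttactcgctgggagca
Casq2: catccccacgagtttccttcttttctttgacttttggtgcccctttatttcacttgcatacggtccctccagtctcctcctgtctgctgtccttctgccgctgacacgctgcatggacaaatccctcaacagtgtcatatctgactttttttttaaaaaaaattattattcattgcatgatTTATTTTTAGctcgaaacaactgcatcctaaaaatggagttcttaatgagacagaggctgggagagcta
Tnnc1: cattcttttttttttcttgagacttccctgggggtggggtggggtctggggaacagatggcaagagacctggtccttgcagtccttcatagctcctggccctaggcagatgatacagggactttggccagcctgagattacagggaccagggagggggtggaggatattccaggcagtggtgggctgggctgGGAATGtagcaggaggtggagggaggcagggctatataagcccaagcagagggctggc
Acta1: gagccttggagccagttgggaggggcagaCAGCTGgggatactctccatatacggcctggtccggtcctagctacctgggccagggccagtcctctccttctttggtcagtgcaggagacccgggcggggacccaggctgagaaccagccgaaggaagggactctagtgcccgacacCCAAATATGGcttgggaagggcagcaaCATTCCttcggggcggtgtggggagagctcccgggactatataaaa
Atp2a1: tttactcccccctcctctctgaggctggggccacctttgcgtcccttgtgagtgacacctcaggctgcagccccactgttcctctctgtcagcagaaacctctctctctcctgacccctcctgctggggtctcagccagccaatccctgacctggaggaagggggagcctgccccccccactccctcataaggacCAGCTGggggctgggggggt
Chrng: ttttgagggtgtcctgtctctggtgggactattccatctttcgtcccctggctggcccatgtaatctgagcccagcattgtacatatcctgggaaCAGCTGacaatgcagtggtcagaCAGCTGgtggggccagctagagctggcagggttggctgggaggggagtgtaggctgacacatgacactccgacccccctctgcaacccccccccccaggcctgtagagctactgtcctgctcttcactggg

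The table held a promoter for 30 of the 41 genes, and 28 of these started within 600 bases of the 5′ end of the deposited locus. Both strands of the 250 bases before the start were searched. The E-box CAGCTG was present in 9 of the 28 genes (32.1%) and in 13% of all 32851 promoters of the table. Of these 9, Tnni1, Cacna1s and Atp2a1 rose, Acta1, Tnnt2 and Myl1 did not pass the test, and Chrna1, Chrng and Ckm were not tested. The MCAT motif CATTCC was present in 5 (17.9%), against 12.6% of all promoters. Of these 5, Tnnc1 and Cacna1s rose, and Acta1, Tnnt2 and Myl1 did not pass the test. The CArG box was present in 2, Acta1 and Actc1, or 7.14% against 1.47%. The MEF2 site was present in 4, Synpo2l, Casq2, Ttn and Xirp2, or 14.3% against 2.92%. Of the printed stretches, those of Acta1 and Cacna1s hold both an E-box and an MCAT motif, and that of Synpo2l, the gene with the largest fold change, holds neither. These matches describe the letters in the window and do not show that a factor binds there.

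Among the 6 myogenic regulators, 2 could be tested and both rose. Myod1 (chr7:46376474-46379092 on mm10) was at 2.22, 0.441, 0.45 and 0.158 CPM in wild type replicates 1 to 4 and at 2.28, 8.15, 17.7 and 10.2 CPM in YAP5SA replicates 1 to 4. The genotypes did not overlap, but the lowest YAP5SA library lay barely above the highest wild type library, and both are the libraries numbered 1. The log2 fold change was 3.53 ± 0.73 (SE, n = 4 per genotype, edgeR adjusted p = 0.0074), from 0.818 ± 0.947 to 9.57 ± 6.36 CPM (mean ± SD). It was 4.70 (adjusted p = 0.0044) without wild type replicate 1 and 5.02 (adjusted p = 0.0005) without both libraries numbered 1. Myog (chr1:134290004-134292548), which acts after Myod1, was at 3.02, 0.588, 1.65 and 0.474 CPM in wild type and at 3.83, 6.22, 16.2 and 12.3 CPM in YAP5SA. Its 4 YAP5SA libraries stood in the same order as for Myod1, again without overlap with wild type. The log2 fold change was 2.74 ± 0.59 (SE, edgeR adjusted p = 0.0091), and 3.39 (adjusted p = 0.0065) without wild type replicate 1.

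The other 4 regulators were at the limit of detection in both genotypes. Pax3 had 1 fragment in wild type replicate 1 and 0 in the other 7 libraries. Pax7 had 2, 2, 1 and 1 fragments in wild type and 0, 0, 1 and 2 in YAP5SA. Myf5, the other commitment factor, had 2, 2, 3 and 1 fragments in wild type and 0, 1, 2 and 7 in YAP5SA. Thus the progenitor genes and Myf5 gave too few fragments to compare, and the 0 fragments of Pax3 over the 4 YAP5SA libraries allow up to 3. Myf6, a late regulator of fibre maturation, had 0, 1, 3 and 0 fragments in wild type and 0, 0, 1 and 0 in YAP5SA.

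Of the 10 thin filament genes, which encode actins, troponins and nebulin, 9 were tested, 4 rose and none fell. Neb, the giant ruler protein of the thin filament, was at 2.07, 1.76, 1.5 and 1.58 CPM in wild type and at 8.62, 4.56, 6.48 and 6.71 CPM in YAP5SA. All YAP5SA libraries stood well clear of wild type, and replicate 1 was the highest. Neb rose by a log2 fold change of 1.93 ± 0.27 (SE, edgeR adjusted p = 0.00091). Tnnc1, the slow skeletal and cardiac troponin C, was at 3.81, 2.06, 1.35 and 1.42 CPM in wild type and at 5.27, 4.28, 7.29 and 6.17 CPM in YAP5SA. The groups did not overlap, and wild type replicate 1 came closest to YAP5SA. Its rise was 1.41 ± 0.35 in log2 fold change (SE, edgeR adjusted p = 0.017), with an adjusted p of 0.051 without wild type replicate 2 and 0.053 without YAP5SA replicate 3.

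Tnni1, the slow skeletal troponin I, was at 6.36, 5.44, 4.35 and 4.58 CPM in wild type and at 6.23, 7.6, 12 and 15.2 CPM in YAP5SA. YAP5SA replicate 1 lay within the wild type range and replicates 3 and 4 far above it. Its log2 fold change of 0.98 ± 0.30 (SE, edgeR adjusted p = 0.042) was near the threshold, and the adjusted p was 0.084 without wild type replicate 2, 0.096 without 3, 0.095 without 4, and 0.11 and 0.1 without YAP5SA replicates 3 and 4. With the replicate number as a block it was 0.072. Tnnt1, the slow skeletal troponin T, differed least among the genes that rose but was the most even within each genotype. It was at 29.2, 33.8, 30 and 28 CPM in wild type and at 38.2, 42.1, 42.4 and 38 CPM in YAP5SA, without overlap. This is a log2 fold change of 0.41 ± 0.08 (SE, edgeR adjusted p = 0.007). Per length it was the most abundant gene of the list in both genotypes, at 34 and 45.4 FPKM (fragments per kilobase and M fragments, group means).

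The other thin filament genes did not pass the test. Acta1, skeletal alpha-actin, was at 5.88, 1.91, 3.75 and 1.11 CPM in wild type and at 3.35, 3.45, 14.7 and 9.79 CPM in YAP5SA. YAP5SA replicates 1 and 2 fell within the wild type range and replicates 3 and 4 lay above it. Its log2 fold change was 1.30 ± 0.58 (SE, edgeR adjusted p = 0.16), and 2.03 (adjusted p = 0.046) without both libraries numbered 1. Actc1, cardiac alpha-actin, was at 50.5, 35.4, 17.5 and 22.9 CPM in wild type and at 18.8, 14.8, 34.7 and 26.2 CPM in YAP5SA, with adjusted p = 0.45. The groups overlapped. Acta1 and Actc1 both encode alpha-actins, and how fragments that match both genes were divided between them was not examined. Tnni2, the fast troponin I, was at 3.81, 2.5, 2.4 and 0.947 CPM in wild type and at 4.07, 4.15, 4.72 and 4.83 CPM in YAP5SA. Here every YAP5SA library lay above every wild type library, yet adjusted p was 0.1, and it was 0.041 without wild type replicate 1. Tnnt2, the cardiac troponin T, had a log2 fold change of -0.29 ± 0.28 (SE, adjusted p = 0.53), and Tnnt3, the fast troponin T, one of 0.64 ± 0.30 (adjusted p = 0.18). Tnnc2, the fast troponin C, was not tested and had 8, 5, 6 and 5 fragments in wild type and 8, 6, 12 and 18 in YAP5SA, and 592 of its 800 exonic bases overlap the cell cycle gene Ube2c.

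Among the 5 genes of the thick filament, titin and the M-line, none rose and 1 fell. Myom1 (chr17:71004006-71126856), which encodes myomesin and cross-links thick filaments at the M-line, was at 41.3, 36.8, 29.1 and 33.8 CPM in wild type and at 11.6, 7.88, 8.63 and 7.38 CPM in YAP5SA. The groups were far apart and each was even. Myom1 had a log2 fold change of -1.98 ± 0.17 (SE, edgeR adjusted p = 6.9e-05). Of its 10459 exonic bases, 207 overlap the protein-coding gene Myl12a on the other strand. Ttn, the titin gene, was at 5.56, 2.35, 1.05 and 1.26 CPM in wild type and at 3.95, 1.66, 6.88 and 4.7 CPM in YAP5SA, with overlap and adjusted p = 0.4. The 3 myosin light chain genes did not pass the test either. Mylpf, the fast regulatory light chain, had means of 5.95 ± 1.7 and 7.02 ± 3.17 CPM (SD), Myl1, the fast alkali light chain, 5.94 ± 2.08 and 4.17 ± 1.81 CPM, and Myl4, the embryonic and atrial light chain, 4.44 ± 1.13 and 5.54 ± 1.96 CPM.

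Of the 7 genes of the Z-disc and myofibril junctions, 2 were tested and both rose. Synpo2l (chr14:20658838-20668306), an actin-bundling protein of the Z-disc, was at 2.22, 1.91, 1.2 and 0.316 CPM in wild type and at 53.1, 51, 43.8 and 37.8 CPM in YAP5SA. The 4 YAP5SA libraries were close to each other, and even the lowest was many times the highest wild type library. Its log2 fold change was 5.02 ± 0.29 (SE, edgeR adjusted p = 9.1e-06). Per length it stood at 0.374 FPKM in wild type and 12.4 FPKM in YAP5SA, which placed it among the most abundant genes of the list in YAP5SA. Actn2, the sarcomeric alpha-actinin that anchors thin filaments, was at 2.38, 0.735, 2.4 and 1.74 CPM in wild type and at 2.99, 6.36, 9.44 and 7.11 CPM in YAP5SA. The groups did not overlap, and YAP5SA replicate 1 lay just above wild type. Actn2 rose by a log2 fold change of 1.83 ± 0.42 (SE, edgeR adjusted p = 0.012). The untested Tcap, Csrp3, Ankrd2, Xirp1 and Xirp2 had at most 11 fragments in any library. Ankrd2, a stretch-responsive ankyrin repeat protein, had 3, 5, 1 and 1 fragments in wild type and 7, 7, 7 and 3 in YAP5SA.

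Of the 5 genes of the triad and of calcium handling, 4 were tested and 3 rose. Cacna1s (chr1:136052901-136119822), the voltage-sensing calcium channel subunit of the transverse tubule, was at 0.636, 1.18, 1.2 and 0.474 CPM in wild type and at 39.3, 17.8, 21 and 18 CPM in YAP5SA. The wild type libraries were all near the limit of detection, the YAP5SA libraries were all far above them, and replicate 1 stood apart at the top. Cacna1s rose by 4.75 ± 0.38 in log2 fold change (SE, edgeR adjusted p = 5.5e-05), and by 4.28 (adjusted p = 0.00017) without both libraries numbered 1. An antisense transcript, Gm37759, overlaps 1309 of its 6550 exonic bases, and the use of strand in counting is not known here. Casq2 (chr3:102086510-102146512), the cardiac and slow-fibre calsequestrin that stores calcium, was at 1.75, 1.76, 1.65 and 1.42 CPM in wild type and at 15.7, 9.26, 8.63 and 7.24 CPM in YAP5SA. The wild type libraries were nearly equal and YAP5SA replicate 1 was again the highest. Casq2 rose by a log2 fold change of 2.62 ± 0.30 (SE, edgeR adjusted p = 0.00033).

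Atp2a1, the calcium pump of fast fibres, was at 1.27, 0.882, 0.75 and 1.89 CPM in wild type and at 2.75, 3.04, 3.91 and 3.89 CPM in YAP5SA. It was low in both genotypes, without overlap. The log2 fold change was 1.50 ± 0.33 (SE, edgeR adjusted p = 0.0098), and 763 of its 3477 exonic bases overlap Rabep2. Ryr1, the calcium release channel that Cacna1s gates, did not pass the test, with means of 12.2 ± 2.14 and 14.1 ± 2.4 CPM (SD) and a log2 fold change of 0.20 ± 0.18 (SE, adjusted p = 0.51). Cacng1, the gamma subunit of the same channel as Cacna1s, had 3, 0, 1 and 1 fragments in wild type and 4, 2, 4 and 0 in YAP5SA. So the voltage sensor was high in YAP5SA while its gamma subunit remained near 0 in every library.

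None of the 3 acetylcholine receptor genes could be tested. Chrng, the gamma subunit of the fetal receptor, had 1, 1, 0 and 0 fragments in wild type and 2, 1, 13 and 9 in YAP5SA. Nearly all of its fragments came from YAP5SA replicates 3 and 4. The ratio of summed fragments over summed library sizes, YAP5SA over wild type, was 10.7 with a 95% exact interval of 2.67 to 93.3 that covers counting error only. Chrna1, the alpha subunit, had 6, 0, 1 and 0 fragments in wild type and 7, 3, 11 and 5 in YAP5SA, a ratio of 3.18 (1.35 to 8.69). Wild type replicate 1 held most of the wild type fragments. Chrnd, the delta subunit, had 0 in every wild type library and 0, 2, 3 and 1 in YAP5SA. Against a floor of 3 fragments over the wild type group this is a ratio of 1.71. That ratio takes no account of counting error in YAP5SA and sets no lower limit. When the filter on low counts was dropped, edgeR called 0 of the 15 untested genes, 2 had an unadjusted p under 0.05, and the lowest adjusted p was 0.061 for Chrng.

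**Figure D2:**
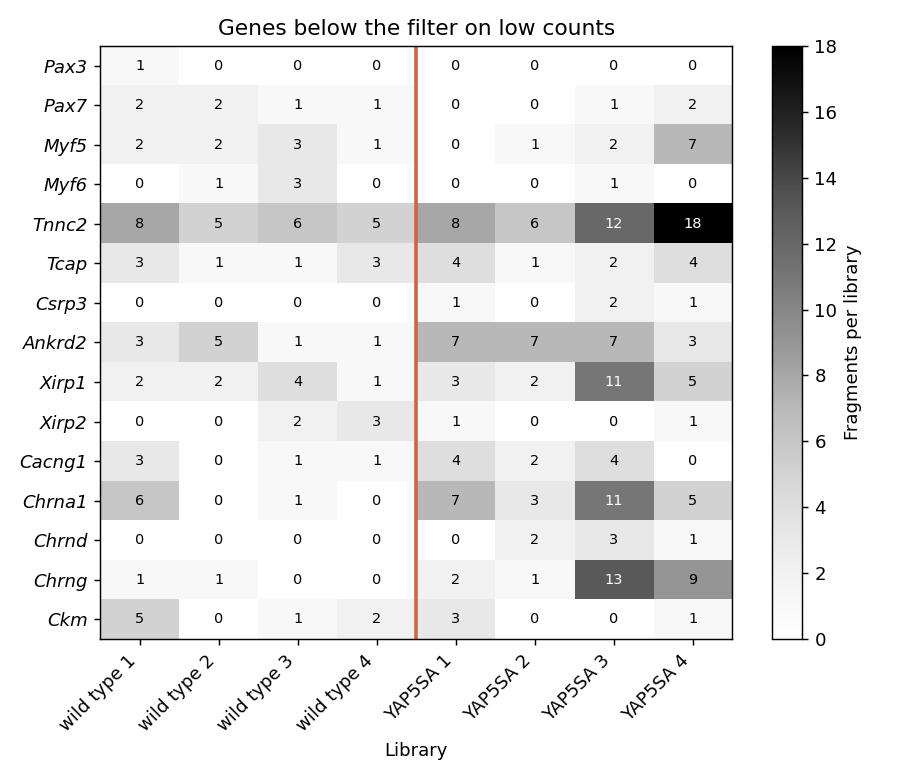
Fragments of the 15 genes below the filter (rows) in each library (columns), printed in each cell and shaded from white at 0 to black at 18; the red line separates wild type from YAP5SA. Most cells are at or near 0 in both genotypes, and Chrng, Chrna1 and Xirp1 have their most fragments in YAP5SA replicate 3.

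Of the 5 chaperones, enzymes and other genes, 4 were tested, 2 rose and 1 fell. Sh3bgr (chr16:96200470-96228933), an SH3-binding glutamic acid-rich protein of heart and skeletal muscle, was at 21, 13.2, 16 and 16.3 CPM in wild type and at 5.03, 3.32, 2.7 and 2.95 CPM in YAP5SA. Every YAP5SA library lay far below every wild type library, as for Myom1. Sh3bgr fell by 2.23 ± 0.24 on the log2 scale (SE, edgeR adjusted p = 0.00021). Smyd1, a methyltransferase needed for myofibril assembly, was at 6.04, 9.11, 10 and 4.42 CPM in wild type and at 14.5, 10.4, 14 and 13.7 CPM in YAP5SA. The groups came close without overlapping. The log2 fold change was 0.82 ± 0.25 (SE, edgeR adjusted p = 0.044), and the adjusted p was between 0.052 and 0.1 when 1 of wild type replicates 1, 2 and 4 or of YAP5SA replicates 1, 3 and 4 was left out. Cdh15, the M-cadherin of myoblasts and satellite cells, was at 1.11, 3.97, 1.5 and 1.42 CPM in wild type and at 3.35, 4.42, 7.69 and 6.04 CPM in YAP5SA. Wild type replicate 2 lay within the YAP5SA range and the other 3 wild type libraries below it. The log2 fold change was 1.40 ± 0.42 (SE, edgeR adjusted p = 0.041), and 1.99 (adjusted p = 0.009) without wild type replicate 2. It missed the threshold when 1 of wild type replicates 1, 3 and 4 or of YAP5SA replicates 2, 3 and 4 was left out (adjusted p from 0.061 to 0.11).

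Unc45b, the chaperone that folds myosin, was at 4.61, 3.09, 3 and 4.42 CPM in wild type and at 4.79, 4.97, 8.23 and 6.31 CPM in YAP5SA. Its groups did not overlap, but the lowest YAP5SA library was close to the highest wild type library, and adjusted p was 0.1. Ckm, the creatine kinase of mature skeletal fibres, had 5, 0, 1 and 2 fragments in wild type and 3, 0, 0 and 1 in YAP5SA. It was thus near 0 in both genotypes, while Myod1 and Myog rose.

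**Figure D3:**
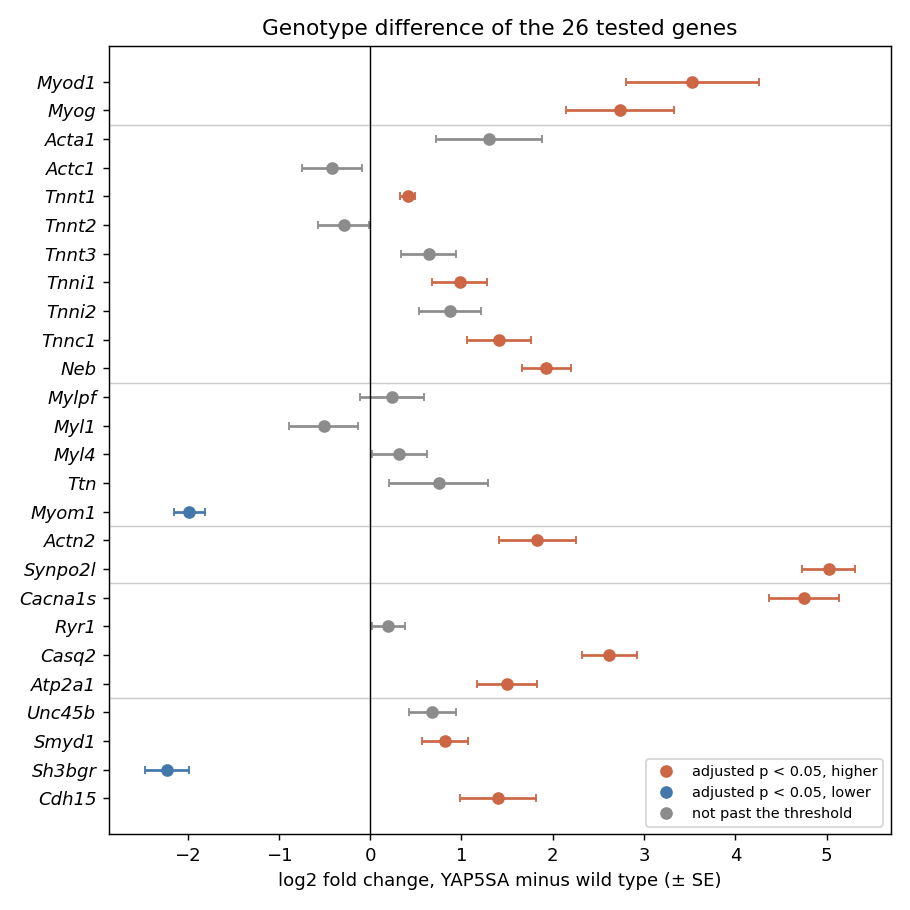
Log2 fold change, YAP5SA minus wild type, of the 26 tested genes with bars of 1 standard error from edgeR, by role; red points passed the test and were higher, blue points passed and were lower, and grey points did not pass. Synpo2l at 5.02 and Cacna1s at 4.75 stand farthest to the right, and Myom1 at -1.98 and Sh3bgr at -2.23 are the called genes to the left of 0.

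The YAP5SA libraries differed among themselves, and Myod1 was lowest in replicate 1, followed by replicates 2, 4 and 3. A gene was counted as following Myod1 where its highest and lowest YAP5SA libraries were the same. Of the 26 tested genes, Myod1 included, 8 did so (30.8%), against 8.62% of all tested loci. They were Myod1, Myog, Acta1, Myl4, Actn2, Atp2a1, Unc45b and Cdh15, and all 8 had the 4 libraries in exactly the order of Myod1, against 5.21% of tested loci. With 4 libraries this is a description without a test, and the choice of Myod1 as the reference makes it a member of its own count. The ratio of replicate 3 to replicate 1 was 7.77 for Myod1, 4.38 for Acta1, 4.22 for Myog and 3.15 for Actn2. It was smaller for Cdh15 (2.29), Myl4 (2.25), Unc45b (1.72) and Atp2a1 (1.42).

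Of the 13 genes that rose, 5 (38.5%) followed Myod1 (Myod1, Myog, Actn2, Atp2a1 and Cdh15). In 5 others (38.5%) the highest level was in replicate 1, where Myod1 was lowest (Neb, Synpo2l, Cacna1s, Casq2 and Smyd1). Among all loci that rose, 6.89% followed Myod1 and 45.2% were highest in replicate 1. The share of these genes that was highest in replicate 1 was thus not above that of all loci that rose. Replicate 1 exceeded replicate 3 by a ratio of 1.87 for Cacna1s, 1.82 for Casq2, 1.33 for Neb and 1.21 for Synpo2l, and by only 1.03 for Smyd1. Cacna1s, Casq2, Neb and Synpo2l, which had the largest fold changes outside the regulators, did not stand in the order of Myod1 across libraries. Replicate 1 was also the deepest library, and 33.3% of all tested loci were highest there. Replicate 3 was the highest for 14 of the 26 genes (53.8%), against 17.6% of tested loci.

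**Figure D4:**
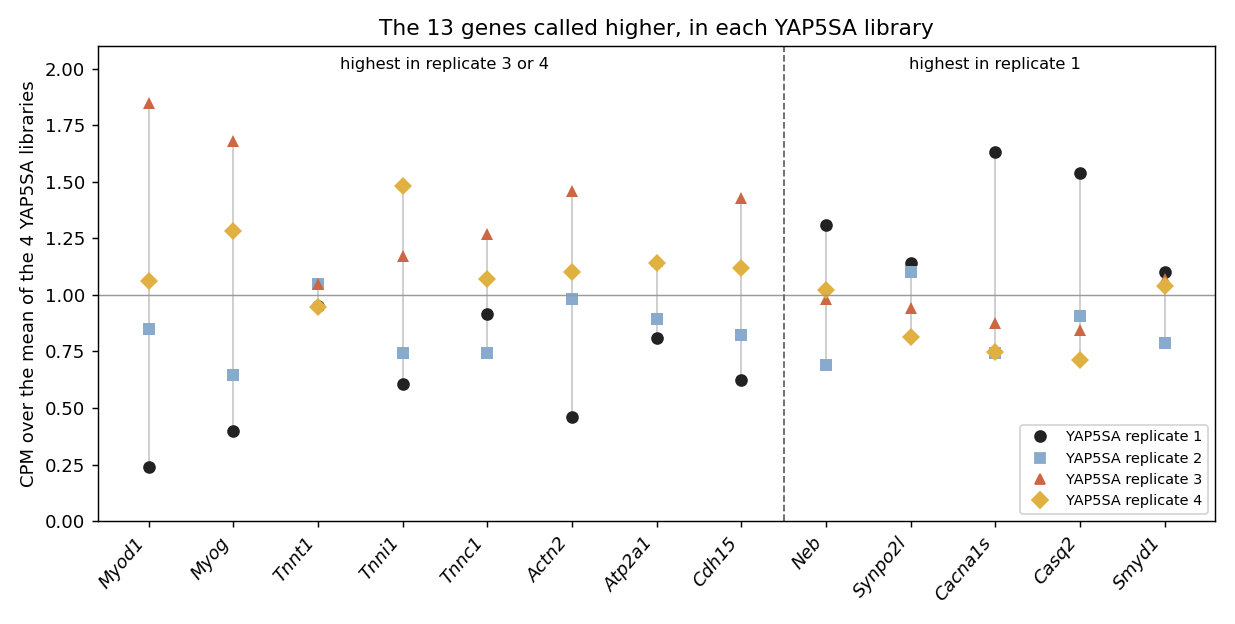
Level of each of the 13 genes that rose in the 4 YAP5SA libraries, divided by the mean of those libraries; each symbol is 1 library, thin lines span the libraries of a gene, and the dashed line separates genes highest in replicate 3 or 4 from genes highest in replicate 1. Replicate 1 is lowest for Myod1, Myog, Tnni1, Actn2, Atp2a1 and Cdh15 and highest for Cacna1s, Casq2, Neb, Synpo2l and Smyd1.

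In wild type, Myod1 was highest in replicate 1, at 6.36 times the mean of the other 3 libraries, and Myog and Acta1 were also highest there, at 3.34 and 2.61 times. Replicate 1 was the highest wild type library for 15 of the 26 genes, against 29.4% of tested loci. For several of these it was only slightly the highest, such as Myom1 (1.24 times the mean of the other 3) and Neb (1.28 times). Other genes were even across the wild type libraries, among them Tnnt1 at 30.2 ± 2.52 CPM and Casq2 at 1.65 ± 0.158 CPM (SD).

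The labelled tissue and other muscle and connective tissues were checked by their markers. The stomach mesenchyme gene Barx1 was present in both genotypes at 171 ± 7.64 and 158 ± 14.2 CPM (SD, edgeR adjusted p = 0.28). Nkx3-2 was at 63 ± 10.5 and 79.1 ± 14.5 CPM (adjusted p = 0.15). Other stomach markers fell in YAP5SA. Sox2 went from 75.4 ± 7.7 to 29.1 ± 9.23 CPM (adjusted p = 0.00082) and Cldn18 from 78.6 ± 23.6 to 20.7 ± 16.4 CPM (adjusted p = 0.011). Of the 8 skeletal muscle markers, Myod1 and Myog rose, Acta1, Tnnt3 and Mylpf did not pass the test, Ckm was near 0, and Myh3 and Myh8 lie in a joined locus that did not pass either. Of 8 tested cardiac markers 3 rose and 1 fell, and their summed level was 150 to 185 CPM in wild type and 170 to 232 CPM in YAP5SA. Gata4, which is also made outside the heart and was the one that fell, from 133 ± 10.5 to 85.6 ± 17.3 CPM (SD), made up most of this sum. The other 12 loci summed to 28 to 42.3 CPM in wild type and 90.1 to 146 CPM in YAP5SA. Ankrd1, a stress-responsive gene of cardiac muscle that is also a known target of YAP, rose from 0.391 ± 0.398 to 45.4 ± 21.4 CPM. Myl7, the atrial light chain, went from 3.09 ± 1.24 to 14.1 ± 4.05 CPM and the heart and mesothelial factor Tbx20 from 2.75 to 26.4 CPM, whereas the natriuretic peptide gene Nppa had 5 and 8 fragments in all and the ventricular light chain Myl2 had 6 and 6.

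Of 15 tested markers of cartilage and body wall connective tissue, 3 rose (20%) and 1 fell (6.67%), against 9.06% and 9.85% of all tested loci. Summed levels over the list were 625 to 735 CPM in wild type and 690 to 793 CPM in YAP5SA. The cartilage collagen Col2a1 was at 36.5, 63.8, 54.4 and 54.3 CPM in wild type and at 66.5, 81.2, 143 and 138 CPM in YAP5SA, and its YAP5SA libraries stood in the order of Myod1. The same order was seen for 4 of the 15 (Sox5, Col2a1, Osr1 and Twist2), whereas 6 of the 15 were highest in YAP5SA replicate 1. Among these was Matn3, a cartilage matrix protein that rose from 0.571 ± 0.483 to 7.83 ± 1.17 CPM (SD). Matn1, a marker of mature cartilage, had 3 and 2 fragments in all. The marker that fell was Tnmd, from 8.2 ± 0.674 to 2.53 ± 2.15 CPM (SD, edgeR adjusted p = 0.027). Sox9, Scx and Acan did not pass the test (adjusted p = 0.16, 0.2 and 0.81). Of 12 smooth muscle markers, 8 fell and none rose, with summed levels of 1857 to 1997 CPM in wild type and 1011 to 1293 CPM in YAP5SA. All 9 loci of neural crest and Schwann cell markers fell, from 386 to 457 CPM to 147 to 245 CPM in sum. The part of cardiac, body wall and smooth muscle tissue in the results for striated muscle genes was not tested.

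A further list of striated muscle genes outside the 41 held 108 loci, of which 69 were tested, 10 rose and 10 fell, with a median log2 fold change of 0.01. This is 14.5% in each direction, against 9.06% higher and 9.85% lower over all tested loci. The 6 with the smallest p moved in both directions. Mybpc1, the slow myosin-binding protein C of the thick filament, was at 11.3, 10.4, 14.1 and 5.05 CPM in wild type and at 96.1, 119, 130 and 75.5 CPM in YAP5SA. All YAP5SA libraries lay far above wild type, with a log2 fold change of 3.36 ± 0.25 (SE, edgeR adjusted p = 2.8e-05). Vgll3, a cofactor of TEAD factors, rose from 20.6 ± 2.9 to 85 ± 26.1 CPM (SD, adjusted p = 0.00031), as did the factor Eya4, from 19 ± 4.65 to 41.2 ± 6.12 CPM (adjusted p = 0.0014), and Myl7. The calcium release channel Ryr3 fell from 26.1 ± 1.5 to 9.64 ± 1.86 CPM (adjusted p = 0.00019) and Asb2, a ubiquitin ligase subunit of muscle, from 31.8 ± 4.08 to 9.41 ± 2.5 CPM (adjusted p = 0.0002).

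The embryonic, perinatal and fast myosin heavy chains are joined in 1 deposited locus, Myh1,Myh3,Myh4,Myh8, whose share of each gene cannot be separated. It was named after its values were seen. It was at 45.4, 50, 96.7 and 16.1 CPM in wild type and at 69, 130, 175 and 145 CPM in YAP5SA, with a log2 fold change of 1.31 ± 0.46 (SE, edgeR adjusted p = 0.091). Wild type replicate 3 lay above YAP5SA replicate 1, and the YAP5SA libraries were in the order of Myod1. Within each of the 4 pairs of the same number YAP5SA was higher, and with the replicate block the log2 fold change was 1.38 (adjusted p = 0.13).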

How the data were processed

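Messenger RNA profiles of 4 wild type and 4 YAP5SA libraries of embryonic stomach were analysed, and the labels gave the groups. RNA was isolated by Trizol and made into TruSeq RNA libraries, per the labels' protocols. The submitters' processing notes name the build mm10 and the tools Cuffdiff, Cufflinks 2.2.1 and TopHat2 2.0.9; how strand was used was not given in the sources used here. The deposited table, per the file headers, holds 26747 loci with estimated counts of fragments, of which 10.9% to 11.3% per library were not exactly whole as deposited (no tolerance), and FPKM scaled by the authors. Counts were rounded, and loci without a gene name (3582, with 1.85% to 1.97% of fragments) were left out.

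The test was that of edgeR 4.0.16 under R 4.3.3 (robust quasi-likelihood test, TMM factors, filterByExpr with 10 fragments in enough libraries and 15 in total), two-sided, with genotype as the only term. CPM use the TMM-scaled library sizes. It was checked on simulated data for this comparison with 14574 loci, where it recovered 84 of 100 loci changed 2-fold and 96 of 100 changed 4-fold. It made 192 calls there, 12 of them false. The changed loci were drawn from all tested loci, and the simulated spread depended on level alone. Recovery may therefore differ for genes as low or as uneven between libraries as many of the list. Alternatives were RLE and upper-quartile factors, DESeq2 1.42.0, limma-voom (limma 3.58.1), limma on log2(FPKM + 1) and log2(FPKM + 0.1), no filter, a replicate block and leaving out each library. TMM factors from loci under 20 CPM, the order of libraries under other scalings, and leaving out both libraries numbered 1 were added after seeing the data. Libraries with the same number deviated together across loci, though weakly (correlations 0.22, 0.14, 0.14 and 0.21 for numbers 1 to 4). Libraries of different numbers had correlations from -0.25 to 0.10. The numbers were therefore taken as possible pairs in the replicate block, while the main test left them out. This pairing comes from these values and the deposited numbers, which start at 0 and were matched to replicates 1 to 4. The labels name no shared litter or day.

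The 41 genes and the other lists were chosen with earlier results of these data known. All genes of the list are accounted for, with values in every library for those that passed the test or did not overlap and for the myogenic regulators. Of other genes, the 6 of the further striated muscle list with the smallest p and abundant or defining markers of other cell types were named; Acta1, Actc1, Ttn, the low genes given per library, Tbx20, Nppa, Myl2, Matn1 and the joined myosin locus were given in more detail after their values were seen. Promoters came from RefSeq and exon overlaps from GENCODE M21 on mm10.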

Additional observations from a re-analysis of the deposited data

Results flagged for a closer look

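In groups of 4 libraries, 7 of the 79 groups checked held 1 library far from the other 3 relative to the range of the group. A rule of this kind is set so that chance flags about 5% of groups. For Myod1, wild type replicate 1 was at 2.22 CPM and the others at 0.441, 0.45 and 0.158 CPM. For Cacna1s, YAP5SA replicate 1 was at 39.3 CPM and the others at 17.8, 21 and 18 CPM. For Cdh15, wild type replicate 2 was at 3.97 CPM and the others at 1.11, 1.5 and 1.42 CPM. For Chrna1, wild type replicate 1 had 6 fragments and the others 0, 1 and 0. For Ankrd2, YAP5SA replicate 4 had 3 fragments and the others 7 each. For Pax3, wild type replicate 1 had 1 fragment and the others 0, and for Myf6, YAP5SA replicate 3 had 1 fragment and the others 0. The last 4 rest on very few fragments.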

How the results depend on the processing

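Over the 19 alternatives, between 9 and 13 genes of the list were called higher and 2 were called lower in each. Leaving out 1 library gave 9 to 12 called higher, the lowest count without YAP5SA replicate 3. With the replicate block, 12 were called higher and 2 lower; only Tnni1 lost its call (log2 fold change 0.92, adjusted p = 0.072). Of the 15 called genes, 10 kept their call in all 19 alternatives, and Tnni1, Smyd1, Cdh15, Tnnc1 and Neb lost it in some. Tnni1 had an adjusted p of 0.083 with limma-voom, and Tnni1 and Smyd1 had 0.061 and 0.053 with limma on log2(FPKM + 1) without a filter. Neb had 0.12 with limma on log2(FPKM + 1). Without both libraries numbered 1, Smyd1 had 0.16 and Cdh15 0.058. The causes were not tested. No fold change reversed. Further striated muscle genes numbered 7 to 11 higher and 9 to 12 lower over the same 19. The count of genes above wild type in every YAP5SA library was recomputed under 13 alternatives and was 13 to 16, and that of genes following Myod1 under 4 and was 8 to 9. Genes under a few CPM, and the 15 below the filter above all, are limited by the number of fragments.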

Other observations

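Further genes of myoblast fusion and of the fibre were looked up after their values were seen. Tmem8c, which encodes myomaker, the membrane protein that fuses myoblasts, had 2, 0, 0 and 1 fragments in wild type and 3, 0, 11 and 8 in YAP5SA. As for Chrng, replicates 3 and 4 of YAP5SA held nearly all of them. Mybph, a myosin-binding protein, was at 1.43, 0, 0.3 and 0 CPM in wild type and at 2.64, 0.691, 4.45 and 4.29 CPM in YAP5SA (log2 fold change 2.78 ± 0.86 SE, edgeR adjusted p = 0.046). Wild type replicate 1 lay above YAP5SA replicate 2. The joined locus of the cardiac and slow myosin heavy chains, Myh6,Myh7, had a mean of 14.1 CPM in wild type, against 6.38 in YAP5SA (log2 fold change -1.14, edgeR adjusted p = 0.051).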
